A study of Homo sapiens with 6 samples.

Results

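The stretch of chromosome 8 around MYC, from 1 Mb before the start of the gene to 2 Mb after its end, was described from 4 lists of ChIP-seq peaks of cells labelled OCI-AML3. Its members were chosen by position and, where stated, by width. The region, its members and the settings were chosen with earlier results of these data known. They were all listed peaks of that window, with those over MYC, PVT1 and CCDC26 and those of 2000 bp or more (wide peaks) in the domain 1.7 to 2.0 Mb after the MYC end taken one by one. The window held 3702 of the 1105043 peaks of the 4 lists, and its domain held 17 wide H3K27Ac peaks in the control list and 12 in the list of edited cells.

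OCI-AML3, a long established human cell line, derives from acute myeloid leukemia (AML) and holds a mutant copy of NPM1 (mtNPM1) beside a normal one, and also mutations of DNMT3A and NRAS that every library shares. Cells were transfected with sgNeg, a control guide RNA, or with sgNpm1A, a guide RNA directed at mtNPM1, and the labels give 3 days of culture afterwards, while the methods of the study give a longer time for these libraries. Histone H3 acetylated at lysine 27 (H3K27Ac) and histone H3 trimethylated at lysine 4 (H3K4me3) were each mapped in 1 library per guide RNA by ChIPmentation, in which the precipitated chromatin is cut and tagged by a transposase. The 2 input libraries were not analysed here. With 1 library in each group no spread between replicates could be measured, no test was made, and what is compared each time is 1 library with 1 other. Neither a transfected pool nor a peak list shows how many cells were edited. The labels name OCI-AML3 throughout, but the deposited H3K27Ac lists bear the tag OCI2 in their names and the H3K4me3 lists the tag OCI3, which no source explains. The study also used OCI-AML2, a line with wild-type NPM1, so which line the H3K27Ac lists came from rests on the labels, and every H3K27Ac value here carries that limit.

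MYC encodes a transcription factor that binds DNA as a dimer with MAX and drives genes of growth and ribosome production. Its neighbour PVT1 is a long non-coding RNA whose promoter lies close behind MYC and can compete with it for enhancers. CCDC26, another long non-coding RNA much farther downstream, overlaps a cluster of enhancers that contact the MYC promoter in blood progenitors and leukemia cells. H3K27Ac marks active promoters and enhancers, long runs of it are called super-enhancers, and H3K4me3 marks active promoters.

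In GRCh37, the build of the H3K27Ac lists, MYC (ENSG00000136997) lies at chr8:128747680-128755197 on the plus strand. PVT1 (ENSG00000249859) follows on the same strand at chr8:128806772-129199347, and CCDC26 (ENSG00000229140) lies on the minus strand at chr8:129646445-130696016. The window ran from 127747680 to 130755197 and the domain from 130455198 to 130755197, so that the domain takes in the first part of CCDC26 as it is transcribed and the ground upstream of its start. In GRCh38, the build of the H3K4me3 lists, MYC lies at chr8:127735434-127742951, PVT1 at chr8:127794524-128101256 and CCDC26 at chr8:129351694-129680239. The record of CCDC26 used there is 328.5 kb long against 1050 kb in GRCh37, and that of PVT1 is 306.7 kb long against 392.6 kb, so values over these genes are not compared between the marks. The GRCh37 annotation put 40 genes over the window, of which MYC and POU5F1B were the only 2 that code for a protein, 18 were long non-coding RNAs and 11 were microRNAs.

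Chromosome 8 was dense with weak peaks in every list, and this background touches every result here. It held 246 and 245 H3K27Ac peaks per Mb and 362 and 127 H3K4me3 peaks per Mb in sgNeg and sgNpm1A, the highest of 24 chromosomes each time and 2.60 to 5.47 times the median chromosome. It made up 4.70% to 4.73% of the length of the genome, yet 11.0% and 11.3% of H3K27Ac peaks and 14.9% and 17.3% of H3K4me3 peaks lay on it. The share of wide H3K27Ac peaks on it was 10.1% in sgNeg and 19.7% in sgNpm1A. Outside the window 32.7% of sgNeg H3K27Ac peaks of chromosome 8 were overlapped by no sgNpm1A peak, and 36.1% of sgNpm1A peaks by no sgNeg peak. The lists themselves differed in depth of calling, with 327715 and 317059 H3K27Ac peaks but 353628 H3K4me3 peaks in sgNeg against 106641 in sgNpm1A. Fold enrichment, the ratio of the pileup to the caller's expected pileup, started at 2.54 and 2.66 for H3K27Ac and at 2.50 and 2.80 for H3K4me3, and the sequencing depth of the libraries was not given in the sources used here. For each value below, the same value over chromosome 8 outside the window stands in for a control region.

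The downstream domain carried the strongest and longest H3K27Ac of the window in sgNeg, and much less of its length lay under peaks in sgNpm1A. Peaks covered 59.2% of the domain in sgNeg and 30.1% in sgNpm1A. The ratio, 0.508, was not that of the chromosome, which outside the window the other way, from 16.6% to 18.8% (1.13). The domain therefore stood 3.56 times above the level of its chromosome in sgNeg and 1.599 times above it in sgNpm1A. Its fold enrichment, weighted by peak length, was 4.77 in sgNeg and 3.18 in sgNpm1A, against 3.23 and 3.19 over the rest of the chromosome. All of the sgNeg excess in height over the chromosome was thus missing from the sgNpm1A list, while part of the excess in length was still listed. There were 75 peaks in sgNeg and 98 in sgNpm1A, and several short sgNpm1A peaks lay where sgNeg had a long one.

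To place that ratio, chromosome 8 outside the window was divided into 465 tiles of 300 kb, the length of the domain. In sgNeg 8 tiles had more of their length under H3K27Ac peaks than the domain, and in sgNpm1A 63 tiles had more. The ratio of sgNpm1A to sgNeg had a median of 1.28 over the tiles, and 5% to 95% of tiles spanned 0.656 to 2.35. Only 6 of 465 tiles had a ratio below that of the domain, and 5.81% of tiles were lower in sgNpm1A by at least 1.5 times. Densely covered tiles tended to lower ratios, and the 28 tiles with 40% or more of their length under sgNeg peaks had a median of 0.859 (0.475 to 1.20), with 1 of them below the domain. Tiles that were already rich in sgNeg are thus the nearer comparison, and the domain lay at the low end of those as well.

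**Figure D1:**
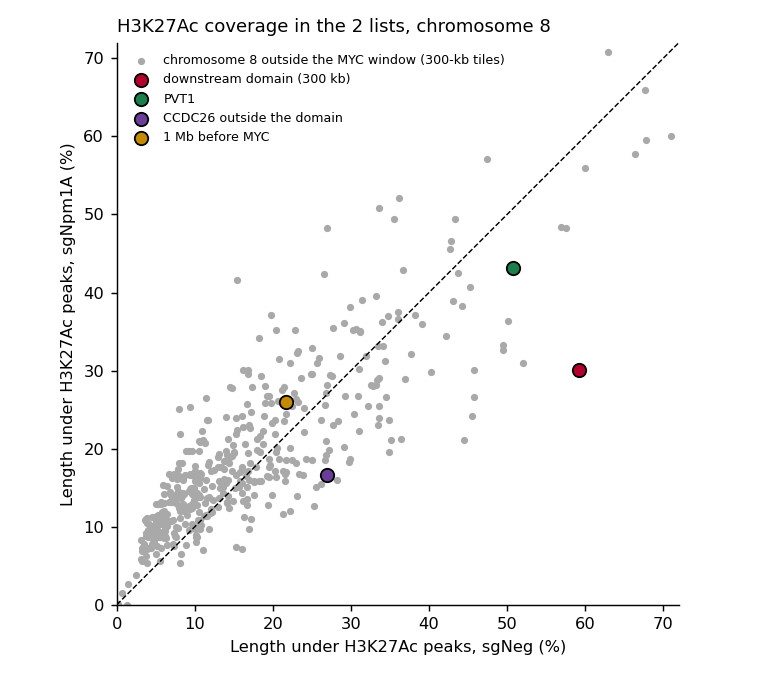
Share of length under H3K27Ac peaks in sgNeg (horizontal axis, percent) and in sgNpm1A (vertical axis, percent). Each grey point is 1 of the 300-kb tiles of chromosome 8 outside the MYC window, coloured points are stretches of the window, which differ in length, and the dashed line marks equal values. The tiles with the highest sgNeg shares, 76.1% and 76.9%, lie beyond the end of the axis and are not drawn. The domain, at 59.2% and 30.1%, lies far below the line, whereas PVT1, at 50.8% and 43.2%, lies near the densely covered tiles.

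Each of the 17 wide sgNeg peaks of the domain was touched by at least 1 sgNpm1A peak (17 of 17, 95% Wilson interval 81.6% to 100%, counting error only). This overlap carries little information on chromosome 8, where 6.23% of wide sgNeg peaks outside the window were overlapped by none. The share of a peak's length that was covered separates more. sgNpm1A peaks covered 37.3% of the summed length of the 17 peaks, with a median of 34.2% per peak and a range of 14.6% to 71.8%. Outside the window they covered 53.9% of the length of 1830 wide peaks, with a median of 54.1%. In the domain 3 of 17 wide peaks were covered over 50% or more of their length, whereas 53.8% of those outside the window were. Just 1 of the 17 met an sgNpm1A peak with 50% of both peaks shared, against 34.3% outside the window. The narrowest peak inside the limit of 2000 bp was 2259 bp long with a fold of 3.04, and the widest outside it was 1958 bp long with a fold of 3.48.

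The peak that stood out most in the domain, and in the whole window, was chr8:130546378-130574720. It was 28343 bp long, spanned exons and transcript starts of CCDC26 and had a fold of 8.47 (q = 1.25e-19), above 99.87% of the peaks of its list. In sgNpm1A 13 separate peaks lay over it, covered 40.9% of it and reached a fold of 3.38 at most. The longest of them was chr8:130571584-130574551, at 2968 bp, at the end nearer to the CCDC26 start.

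The second strongest sgNeg peak was chr8:130672854-130689426, 16573 bp long with a fold of 7.36 (q = 1.84e-16), which overlaps an exon of CCDC26. Of its length 20.1% was covered by 5 sgNpm1A peaks with a highest fold of 3.49. The third, chr8:130592586-130609841, was 17256 bp long with a fold of 5.60 (q = 1.46e-09), and 9 sgNpm1A peaks with folds up to 3.53 covered 32.7% of it. The fourth, chr8:130690042-130705762, covers the start of CCDC26 itself. It was 15721 bp long with a fold of 4.82 (q = 4.17e-07), and 6 sgNpm1A peaks covered 39.3% of it. The highest of these 6, at chr8:130699779-130700111 with a fold of 4.38, was also the highest H3K27Ac value of sgNpm1A in the domain. These were the 4 peaks of the domain with a q-value under 1e-05, 5.33% of its sgNeg peaks, and sgNpm1A had 0 of 98 there at that level. Over chromosome 8 outside the window 1.55% of sgNeg and 0.889% of sgNpm1A peaks reached it. The 0 is thus near the share of its list.

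Beside the strong peaks lay 13 wide sgNeg peaks with folds of 2.89 to 3.72, close to those of ordinary peaks of this chromosome. Among them chr8:130639430-130651838 was by far the longest, at 12409 bp with a fold of 3.53. It was also the best covered of the 17, with 71.8% of its length under 4 sgNpm1A peaks of up to 3.36-fold, of which chr8:130638402-130642817, chr8:130643440-130646006 and chr8:130646853-130649124 were themselves wide. Next to it chr8:130652444-130657466 was 5023 bp long (3.01-fold) and the least covered, at 14.6%.

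The next 2 peaks toward the CCDC26 start were unlike each other. The peak chr8:130662073-130664407 (2335 bp, 3.02-fold) was covered over 67.9% of its length. The peak chr8:130665619-130672390 (6772 bp, 3.11-fold) was covered over 24.99%, and the sgNpm1A peak chr8:130672033-130673011 that bridged it to its strong neighbour had a fold of 3.49.

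At the side of the domain nearer to MYC, 5 wide sgNeg peaks were all covered over less than 50% of their length. The first of these, chr8:130453017-130455275 (2259 bp, 3.04-fold), crosses the edge of the domain and was covered over 20.3%. The peak chr8:130471396-130474042 (2647 bp) had the highest fold among the 13 weaker peaks, 3.72, and was covered over 34.2%. The peak chr8:130491403-130494765 (3363 bp, 2.90-fold) was covered over 42.9%. It was followed by chr8:130498988-130504394 (5407 bp, 3.65-fold), which overlaps a CCDC26 exon and was covered over 17.7%. The fifth, chr8:130537108-130542145 (5038 bp, 3.13-fold), was covered over 30.9%. Between the strong peaks lay chr8:130585130-130587623 (2494 bp, 2.92-fold), covered over 29.1% by 1 peak.

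Upstream of the CCDC26 start lay 3 wide sgNeg peaks. The peak chr8:130714225-130717026 (2802 bp, 2.96-fold) was covered over 41.6%. The peak chr8:130723154-130726738 (3585 bp, 2.89-fold) was the one that shared over 50% of both lengths with an sgNpm1A peak, chr8:130723944-130726290, whose fold was 2.99. The last, chr8:130738310-130741156 (2847 bp, 3.50-fold), reaches the pseudogene MTRF1LP2 and was covered over 40.3%, with an sgNpm1A fold of 3.66. The highest sgNpm1A fold was the larger at 8 of the 13 weaker peaks. It was larger at 969 of 1426 wide peaks under 4-fold on chromosome 8 outside the window, so the weaker peaks were ordinary in this. At none of the 4 strong peaks was it larger, beside 29 of 404 wide peaks of at least 4-fold outside the window.

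The comparison was also restricted by height or by length, 1 at a time, which leaves the other unmatched and cannot separate them. Peaks of at least 4-fold had a median width of 16914.5 bp in the domain and 4147 bp outside the window. Peaks of 10 kb or more had a median fold of 5.60 and 4.22. The 4 domain peaks of at least 4-fold had 34.3% of their length covered, against 40.3% for 404 such wide peaks of chromosome 8 outside the window. The 13 peaks under 4-fold had 41.5% covered against 60.1% for 1426 outside. Of 10 kb or more there were 5 in the domain and 84 outside, with 39.5% and 62.4% of their length covered. By summed length the domain was below the rest of the chromosome in each of these strata. By the median per peak it was above it for peaks of at least 4-fold, at 36.0% against 25.2%, and 61 of those 404 peaks outside the window were not overlapped at all.

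**Figure D2:**
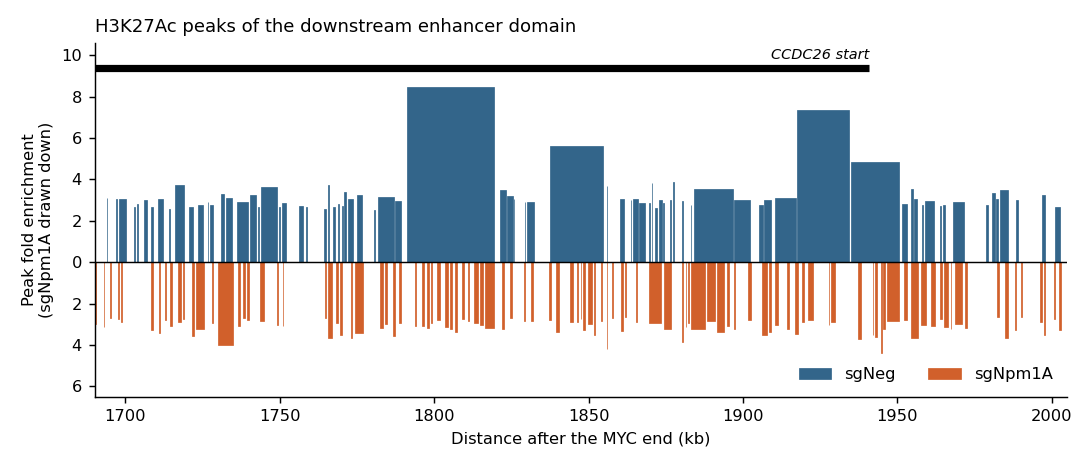
H3K27Ac peaks of the downstream domain, each drawn from its start to its end against the distance after the MYC end in kb. Bar height is fold enrichment averaged over the peak, with sgNeg drawn up and sgNpm1A drawn down, and the black bar is CCDC26, whose start is at its right end. The 4 tall sgNeg peaks, with folds of 4.82 to 8.47, faced many short sgNpm1A peaks with folds of at most 4.38.

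The 12 wide sgNpm1A peaks of the domain had folds of 2.83 to 3.99, and all of them were overlapped in sgNeg, where 2.04% of wide sgNpm1A peaks outside the window were not. sgNeg peaks covered 73.4% of their length, and 10 of 12 were covered over 50% or more, against 60.0% outside the window. The longest and strongest, chr8:130485011-130490009 (4999 bp, 3.99-fold), was among the less covered, with 51.7% of its length under sgNeg peaks of up to 3.31-fold. Others with low shares were chr8:130629509-130631995 (3.25-fold, 23.7%) and chr8:130624921-130628554 (2.94-fold, 38.1%), in the gap between the third strong sgNeg peak and the longest weak one. Better covered were chr8:130478033-130480570 (3.23-fold, 63.6%), chr8:130529547-130532003 (3.40-fold, 74.2%) and chr8:130709651-130711814 (3.67-fold, 68.5%). The peak chr8:130701895-130705710, just upstream of the CCDC26 start, was 3816 bp long with a fold of 2.83 and lay wholly within the sgNeg peak there. Few stretches of the domain were wide in sgNpm1A without sgNeg peaks beneath them. In sgNpm1A the narrowest peak inside the limit was 2164 bp long and the widest outside it 1532 bp.

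H3K4me3 showed no such domain. Peaks covered 9.49% of it in sgNeg and 6.93% in sgNpm1A, where chromosome 8 outside the window had 10.2% and 7.28%, so the domain sat at 0.932 and 0.953 times the level of its chromosome. The ratio of 0.730 was ordinary as well. Of 463 tiles 288 had a lower one, the median tile was at 0.685, and 45.1% of tiles were lower by at least 1.5 times. The list held 113 and 38 peaks there, 0 of them wide in either library, with folds of at most 5.62 in sgNeg and 5.09 in sgNpm1A. The lower H3K27Ac coverage of the domain in sgNpm1A thus had no counterpart in H3K4me3, where the domain moved with its chromosome. The direction for H3K4me3 rested on which peaks were counted, since with a fold of at least 4 the ratio was 1.23 in the domain and 1.13 on the chromosome.

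CCDC26 outside the domain, 808.8 kb of gene body between the domain and the gene's far end, carried less H3K27Ac but had a like difference. Coverage was 26.9% in sgNeg but 16.6% in sgNpm1A (ratio 0.618), which took it from 1.62 times to 0.885 times the level of the chromosome. All 19 wide sgNeg peaks in it were overlapped, but only 25.8% of their length was covered, less than over the domain, and 5 of 19 were covered over 50% or more. Across all of CCDC26 the 33 wide peaks were covered over 32.6% of their length.

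The strongest of the 19 was chr8:129883577-129892993, in an intron, 9417 bp long with a fold of 6.37 (q = 2.44e-12). A single sgNpm1A peak of 3.46-fold covered 15.8% of it. Another 3 exceeded 4-fold. The peak chr8:129689473-129697755 (8283 bp, 4.91-fold) was covered over 3.79%, the least of any wide peak of the window, and chr8:129745140-129748857 (3718 bp, 4.40-fold) over 5.97%. The peak chr8:129839426-129842630 (3205 bp, 4.19-fold), which overlaps a CCDC26 exon, was covered over 9.33%. At these 4 peaks no sgNpm1A value exceeded 3.46-fold. They lay in 3 bins of 100 kb that differed unequally. The bin 900 to 1000 kb after the MYC start went from 26.7% to 10.1%, the bin 1000 to 1100 kb from 27.4% to 19.3% and the bin 1100 to 1200 kb from 38.7% to 11.8%.

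The remaining wide peaks over this part of CCDC26 had folds of 2.69 to 3.75. Poorly covered ones were chr8:129874699-129880152 (5454 bp, 3.56-fold), covered over 4.40%, chr8:129686112-129688337 (2.93-fold, 7.91%), chr8:130284943-130287064 (3.18-fold, 8.95%) and chr8:129683379-129685649 (3.01-fold, 16.6%). Intermediate were chr8:129960429-129963011 (2.79-fold, 23.2%), chr8:130385178-130387299 (2.69-fold, 28.4%), chr8:130432294-130436369 (3.75-fold, 33.6%), chr8:129956145-129959970 (2.77-fold, 38.0%), chr8:129982495-129988422 (3.41-fold, 39.3%) and chr8:130085697-130087716 (3.03-fold, 49.7%). Over 50% of their length was covered at chr8:129829429-129831788 (3.16-fold, 50.1%), chr8:130394733-130396820 (2.82-fold, 56.0%), chr8:129799716-129802435 (2.99-fold, 64.3%), chr8:129950436-129952576 (2.95-fold, 65.2%) and chr8:129667886-129670017 (2.80-fold, 73.9%). sgNpm1A had 5 wide peaks of its own there, with chr8:130091103-130093716 the strongest, at 4.00-fold.

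PVT1 kept most of its H3K27Ac. Coverage of the gene was 50.8% in sgNeg but 43.2% in sgNpm1A (ratio 0.850), which left it at 2.29 times the level of the chromosome in sgNpm1A against 3.05 in sgNeg. With that it was more densely covered than the domain in the sgNpm1A list, whereas in sgNeg the order was the reverse. The 26 wide sgNeg peaks over PVT1 were covered over 62.01% of their length, 17 of them over 50% or more, and 11 shared over 50% of both lengths with an sgNpm1A peak. In 20 of 26 the highest sgNpm1A fold was the larger. That held for 998 of 1830 wide peaks of chromosome 8 outside the window, and for 969 of the 1426 under 4-fold. The levels of 2 such lists are not on 1 scale, since the lowest listed fold was also higher in sgNpm1A.

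The PVT1 promoter differed from most of the gene body. The sgNeg peak chr8:128805990-128809631, over the gene's start, was 3642 bp long with a fold of 4.69 (q = 5.29e-07), the only one over PVT1 with a q-value under 1e-05. It was covered over 28.7% by 2 sgNpm1A peaks of at most 2.88-fold. Poorly covered in the gene body were chr8:128971427-128974036 (3.61-fold, 14.9%), which holds MIR1205, and chr8:128942284-128944825 (3.22-fold, 18.3%). Also under 50% were chr8:129185304-129190587 (3.02-fold, 27.2%), chr8:129003682-129006886 (3.13-fold, 29.95%), chr8:129069734-129073051 (2.93-fold, 33.5%), chr8:128988529-128990601 (3.17-fold, 37.0%), chr8:129012016-129014174 (3.05-fold, 37.4%) and chr8:129115076-129117949 (2.87-fold, 45.2%).

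Several PVT1 peaks were almost the same interval in both lists. The peak chr8:128997930-129003201 (5272 bp, 2.97-fold) faced chr8:128997772-129003032 (5261 bp, 3.19-fold) and was covered over 96.8%. The peak chr8:129135487-129138494 (3008 bp, 3.00-fold) faced chr8:129135582-129138950 (3.22-fold), also at 96.8%. The peak chr8:128938339-128941236 (2898 bp, 2.93-fold) faced chr8:128938512-128941224 (3.33-fold) and was covered over 93.6%. The longest pair after those was chr8:128863548-128870046 (6499 bp, 3.21-fold) and chr8:128863475-128868535 (5061 bp, 3.29-fold), with 76.8% covered. These matched intervals were all of modest height.

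The longest peak over PVT1, chr8:129047300-129063521, was 16222 bp long with a fold of 3.74, holds MIR1207 and was covered over 69.3% by 7 sgNpm1A peaks of up to 3.89-fold. A domain peak of like length and height, chr8:130639430-130651838, was covered to a like extent (71.8%), whereas the 4 taller peaks of the domain were not. Covered over 79.6% to 84.7% were chr8:128960371-128963969 (3.53-fold), which holds the start of LINC02912, chr8:128977500-128982280 (3.40-fold, met by an sgNpm1A peak of 3.92-fold) and chr8:128901972-128906644 (3.17-fold). Between 54.2% and 73.2% were covered at chr8:129177223-129183351 (3.25-fold), chr8:128927986-128932730 (2.93-fold), chr8:128850902-128853453 (3.36-fold, under an sgNpm1A peak of 4.20-fold), chr8:129163802-129166252 (3.02-fold), chr8:128949889-128952423 (3.34-fold), chr8:128945665-128948143 (3.21-fold), chr8:128877169-128879855 (3.17-fold), chr8:128953118-128956469 (2.69-fold) and chr8:128821697-128824744 (2.84-fold).

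**Figure D3:**
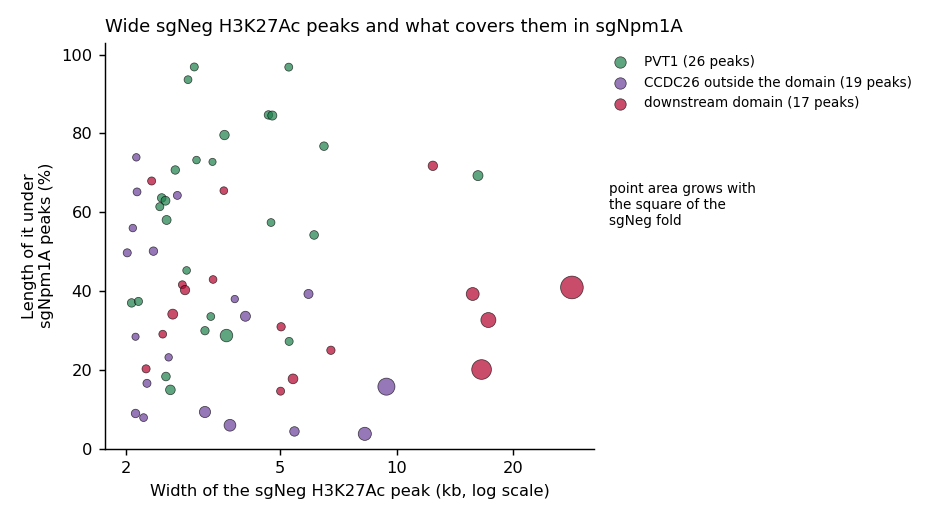
Wide sgNeg H3K27Ac peaks by width (horizontal axis, kb, log scale) and by the share of their length under sgNpm1A peaks (vertical axis, percent). Point area grows with the square of the sgNeg fold enrichment. PVT1 peaks spread from 14.9% to 96.8%, CCDC26 peaks outside the domain reach down to 3.79%, and the 4 tall domain peaks lie between 20.1% and 40.9%.

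At MYC itself the single broad H3K27Ac peak of sgNeg was broken into small weak peaks in sgNpm1A. The sgNeg peak chr8:128746551-128751952 covered the promoter and the first part of the gene over 5402 bp. Its fold was 5.69 (q = 2.07e-09), above 98.96% of the list. In sgNpm1A 3 peaks covered 24.6% of it: chr8:128747566-128748324 with 2.84-fold at the start of the gene, chr8:128749602-128749847 with 2.76-fold, and chr8:128751126-128751449 with 2.94-fold. The highest of them lay above 50.45% of its list, so the percentile of the MYC promoter, taken within 1 kb of any annotated transcript start, differed by -48.5 points.

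Farther along MYC the lists were close to each other. sgNeg had chr8:128752840-128753041 (2.67-fold) and chr8:128753811-128754583 (2.59-fold), the second of which was 78.9% covered. sgNpm1A had chr8:128752477-128752939 (2.76-fold) and chr8:128753933-128754542 (2.86-fold). Over the whole gene the covered share was 69.8% in sgNeg but 30.4% in sgNpm1A (ratio 0.436). Each of the 14 annotated MYC transcript starts still had a peak within 1 kb in both lists. On chromosome 8, 83.4% of coding genes had a promoter peak in sgNpm1A, and 7.41% of those with one in sgNeg had none, so a weak peak at a promoter there is the common case. Across the genome a promoter peak was listed for 79.1% of coding genes in sgNeg and 57.0% in sgNpm1A, and 34.0% of the former had none in sgNpm1A. Among coding genes with an sgNeg promoter peak 82.9% had a lower percentile in sgNpm1A, with a median difference of -35.4 points, so the direction at MYC was that of most genes.

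**Figure D4:**
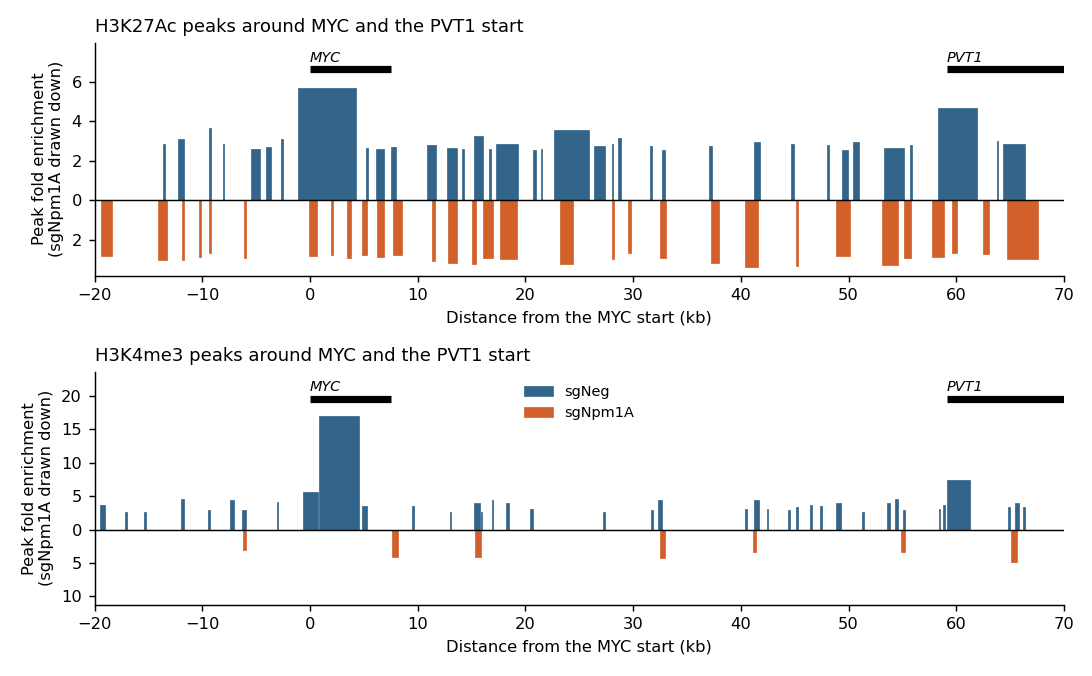
Peaks around MYC and the PVT1 start for H3K27Ac (top, GRCh37) and H3K4me3 (bottom, GRCh38), against the distance from the MYC start in kb. Bar height is fold enrichment, averaged over the peak for H3K27Ac and at the summit for H3K4me3, with sgNeg drawn up and sgNpm1A drawn down, and black bars are the genes. The tall sgNeg peaks at MYC, 5.69-fold and 17.1-fold, faced 3 weak H3K27Ac peaks and no H3K4me3 peak.

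H3K4me3 at MYC was the strongest of the window in sgNeg and was not listed in sgNpm1A. The sgNeg list held 3 peaks over the gene, chr8:127734806-127736161 across the start (5.62-fold), chr8:127736286-127739943 over the gene body (3658 bp, 17.1-fold, above 99.99% of the list) and chr8:127740223-127740756 (3.54-fold). The summit of the second held 81 fragments as worked back from its fold (exact Poisson 95% interval 64.3 to 100.7, counting error only), over an expected 3.81. In sgNpm1A the lowest listed pileup was 10 fragments over an expected 2.93, so a summit of fewer fragments would have gone unlisted. The nearest sgNpm1A peak began 2330 bp from the last of the 3. Peaks covered 65.4% of MYC in sgNeg and 0% in sgNpm1A.

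That absence was shared by most genes. A promoter peak of H3K4me3 was listed for 65.1% of coding genes in sgNeg and 7.61% in sgNpm1A, and 90.9% of the genes with one in sgNeg had none in sgNpm1A. On chromosome 8 the latter share was 74.6%, and 22.6% of its coding genes had a promoter peak in sgNpm1A. A lower percentile was found for 96.6% of the coding genes with an sgNeg promoter peak. Single peaks told the same, since 67.0% of sgNeg peaks of chromosome 8 outside the window had no sgNpm1A peak over them, and 26.3% the other way. MYC thus could not be told apart from the general shortness of the sgNpm1A list by the presence of a peak alone.

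Coverage of the neighbourhood was described as well. In the 100 kb from the MYC start on, the share of length under H3K4me3 peaks was 16.8% in sgNeg but 2.94% in sgNpm1A (ratio 0.175). The 100 kb before it had 16.4% and 15.9%, and the bin from 100 to 200 kb had 19.2% and 16.4%. With peaks of at least 4-fold alone the ratio of this bin was 0.278, still below 1, although that of the chromosome was then 1.13. Neither neighbour of the bin that holds MYC and the PVT1 promoter showed a like difference. Of 1380 bins of this length on chromosome 8 outside the window 30 had a lower ratio, and of the 203 that had at least as much sgNeg coverage 0 did. The bin was singled out after the data were seen, and the other bins were not matched for promoter peaks. These counts therefore only describe it and do not set MYC apart from other promoters. Between the end of MYC and the start of PVT1 coverage went from 10.9% to 4.54%. The same bin had an H3K27Ac ratio of 0.751 (37.0% and 27.8%), which was lower in 194 of 1386 bins and in 56 of the 132 with at least as much sgNeg coverage.

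**Figure D5:**
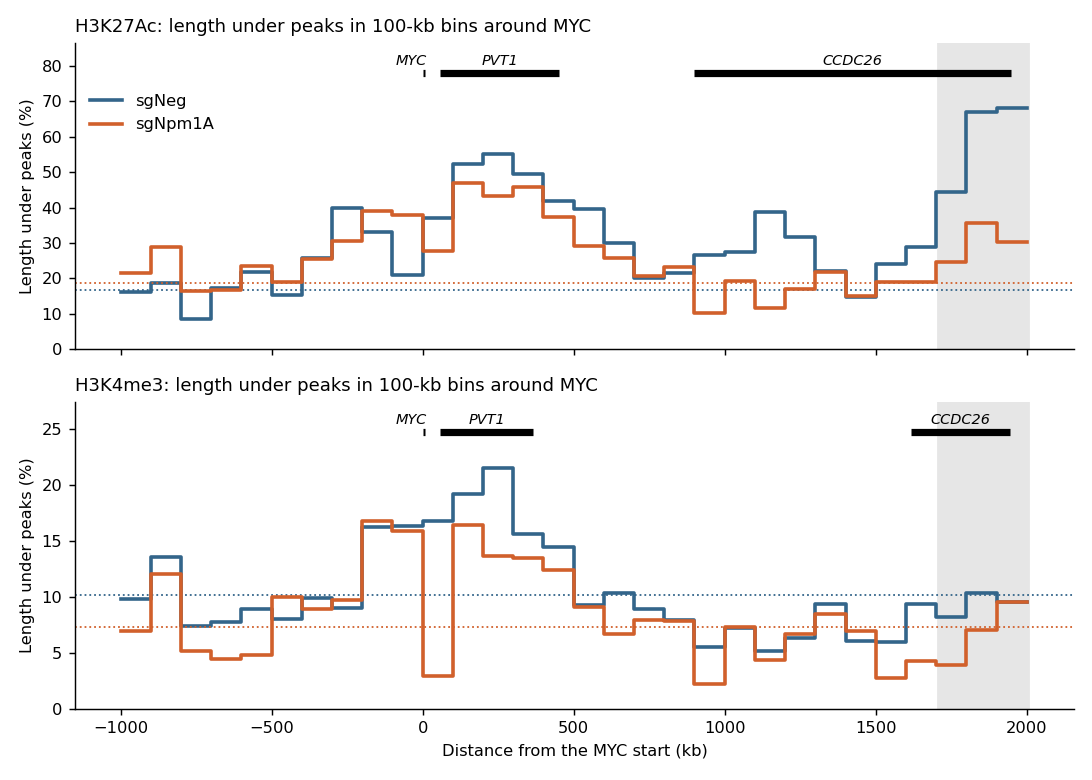
Share of length under H3K27Ac peaks (top) and H3K4me3 peaks (bottom) in bins of 100 kb, in percent, against the distance from the MYC start in kb. Solid lines are the 2 lists, dotted lines are the level of each list over chromosome 8 outside the window, black bars are the genes as annotated in the build of each mark, and grey marks the domain. H3K27Ac lines part most over the domain (68.0% and 30.4% in its last bin) and H3K4me3 lines in the bin of MYC (16.8% and 2.94%).

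The PVT1 promoter was the other wide H3K4me3 peak of sgNeg. It lay at chr8:127794527-127796736, was 2210 bp long with a fold of 7.49 (above 98.45% of the list), and no sgNpm1A peak overlapped it. Deeper in PVT1 the lists were closer. Peaks covered 18.6% and 12.9% of the gene, a ratio of 0.694 beside 0.714 for the chromosome. The strongest sgNpm1A peak of the window, chr8:128040806-128041627 with 6.10-fold and 23 fragments (14.6 to 34.5), lay there and faced an sgNeg peak of 5.82-fold. At the start of CCDC26 both lists had a low peak, of 3.54-fold in sgNeg and 3.05-fold in sgNpm1A. CCDC26 as annotated in GRCh38 was covered over 9.24% and 5.00%. The strongest H3K4me3 peaks over the gene had a fold of 6.03, in sgNeg.

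Across the window the 2 marks gave ratios of 0.817 for H3K27Ac (31.9% and 26.0%) and 0.791 for H3K4me3 (10.5% and 8.27%), the second of which became 1.32 with a fold of at least 4. H3K27Ac differed by stretch. It was higher in sgNpm1A over the 1 Mb before MYC, where 21.7% and 25.9% were covered (ratio 1.19, near the 1.13 of the chromosome). It was lower between MYC and PVT1 (31.1% and 26.3%) and between PVT1 and the domain (27.4% and 19.8%). From the lowest ratio up, the order was MYC, the domain, CCDC26 outside the domain, the gap before PVT1 (0.846) and PVT1 (0.850). The ground from PVT1 to the domain (0.723) takes in CCDC26 outside the domain, so it is not a separate stretch. Its part outside CCDC26 was not measured alone. The window held 15 sgNeg H3K27Ac peaks with a q-value under 1e-05 and 1 in sgNpm1A, which were 1.44% and 0.103% of its peaks. Over the rest of chromosome 8 there were 544 and 310, or 1.55% and 0.889%. The sgNeg share of the window was thus near that of the chromosome. Of 30 bins of 100 kb, 20 had lower H3K27Ac coverage and 23 lower H3K4me3 coverage in sgNpm1A. Among the longer 300-kb tiles outside the window, 140 of 465 were lower for H3K27Ac and 453 of 463 for H3K4me3. Lower H3K4me3 coverage was thus the rule on this chromosome for the full lists only. With a fold of at least 4 the H3K4me3 ratio of chromosome 8 outside the window was 1.13.

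Among the other genes of the window, those under a wide sgNeg H3K27Ac peak or with an sgNeg H3K4me3 promoter peak were as follows. CASC11, which runs away from MYC on the other strand and overlaps it, shared the MYC promoter peak (5.69-fold in sgNeg, 2.94-fold in sgNpm1A) and its H3K4me3 peak of 5.62-fold, with none in sgNpm1A. CASC19, a long non-coding RNA before MYC, had 3.28-fold and 3.54-fold H3K27Ac, and 5.82-fold and 4.07-fold H3K4me3. LINC02912, within PVT1, had 3.53-fold and 3.61-fold H3K27Ac, and 4.16-fold and 4.07-fold H3K4me3. PCAT1 has 31 annotated starts, and its highest H3K27Ac values, 4.64-fold and 3.52-fold, were at different ones. At the first of them it had 2.75-fold and 3.16-fold. An H3K4me3 promoter peak of PCAT1, of 3.95-fold, was listed in sgNeg alone.

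At the far side, MTRF1LP2 had 3.50-fold and 3.66-fold H3K27Ac, and 4.16-fold and 4.83-fold H3K4me3. LINC00824, between PVT1 and CCDC26, had 3.13-fold and 3.17-fold H3K27Ac, and 3.74-fold and 3.82-fold H3K4me3. ENSG00000285108, a long non-coding RNA that starts in the domain, had 3.35-fold H3K27Ac in sgNeg and no promoter peak in sgNpm1A. The RNA ENSG00000287781 had 2.91-fold and 3.62-fold, and ENSG00000286034 had 2.94-fold and 2.84-fold. ENSG00000253573, far before MYC, had 4.64-fold and 2.88-fold within 1 kb of its start, but the sgNpm1A peak chr8:127855556-127858051, with 5.13-fold, lay over the same sgNeg peak and ended just beyond that distance. ENSG00000286266 had 2.99-fold and 3.25-fold, and ENSG00000253926, at the edge of the domain, had 3.29-fold and 3.23-fold. Peaks of H3K4me3 of at most 4.58-fold were listed in sgNeg at CASC8, MIR1205, RNU4-25P, RN7SKP226 and RN7SKP206, and at all but RN7SKP226 in sgNpm1A as well. MIR1205 and MIR1207, in PVT1, had 3.61-fold and 3.47-fold, and 3.74-fold and 3.43-fold H3K27Ac. POU5F1B, the other coding gene, had an H3K27Ac peak at its first start in both lists (2.60-fold and 3.52-fold) and no H3K4me3 peak in either. H3K27Ac at these genes thus differed in both directions. All 132 annotated PVT1 starts had a peak within 1 kb in both lists, and of 76 CCDC26 starts 73 had one in sgNeg and 63 in sgNpm1A. Starts of 1 gene can share a peak, so these are not separate results. For comparison, 83.4% of coding genes of chromosome 8 had a promoter peak in sgNpm1A.

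The partners and rivals of MYC in its network lie on other chromosomes, where the background of weak peaks is lower. Of 12 genes, 11 had an H3K27Ac promoter peak in sgNeg and 9 in sgNpm1A, and all 11 had a lower percentile, with a median difference of -48.8 points beside -35.4 for coding genes overall. MAX, the obligate partner, had 10.1-fold in sgNeg and no peak in sgNpm1A, and MXD1, an antagonist that also pairs with MAX, had 8.74-fold and none. These percentiles take the strongest peak at any annotated start, which could be another start in each list. Among the antagonists MXI1 had 97.2 in sgNeg and 90.8 in sgNpm1A by that measure, but 3 of its 37 starts had a peak in sgNpm1A against 36 in sgNeg, and its first start had 80.1. MNT had 98.6 and 81.0, with 55.3 at its first start in sgNpm1A. MXD4 had 98.8 and 96.7, and MXD3 98.2 and 27.02, both with no sgNpm1A peak at the first start. MGA, which also binds MAX (96.4 and 46.3), and MLXIP (92.9 and 78.6) and MLXIPL (95.5 and 77.4), the partners of MLX in a parallel network, likewise had none there. MLX itself had 98.3 and 34.8. The MYC relatives differed, since MYCL had a peak in sgNeg alone (2.77-fold) and MYCN in sgNpm1A alone (3.20-fold). An sgNeg H3K4me3 peak was listed at the promoters of 9 of the 12, led by MAX (13.3-fold), MNT (11.0-fold) and MXD1 (10.2-fold), and an sgNpm1A peak at 0, with a median difference of -98.8 points beside -97.2 overall. The list thus moved as coding genes in general did.

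Base composition separated the promoters from the domain. Over the MYC promoter peak of sgNeg the GRCh37 reference was 56.4% G and C with 58.1 CpG dinucleotides per kb, 0.730 of the number its base content gives. The PVT1 promoter peak had 54.0% and 40.1 per kb. The 17 wide peaks of the domain had a median of 42.1% (38.9% to 48.8%) and 6.03 CpG per kb (2.27 to 10.2), against 48.8% and 12.8 for wide peaks of chromosome 8 outside the window. As averages over whole peaks, all 17 were below the MYC and PVT1 promoter peaks, and the 15.7-kb peak over the CCDC26 start had 9.10 per kb. Shorter stretches within the peaks and the rest of the domain were not measured.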

How the data were processed

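Peak lists of 4 libraries (H3K27Ac and H3K4me3, each in sgNeg and sgNpm1A) were analysed, grouped by sample title, with 1 library per group. The 2 inputs were not analysed here. The authors called peaks in each library separately. The submitters' processing notes name bcl2fastq 2.17, Trimmomatic 0.33, Bowtie 1.1.2, MACS2 2.1.0, deepTools and hg38, but how they were used, the calling threshold and the role of the inputs are not given in the sources used here. Fold enrichment, as deposited, is a ratio of pileup to expected pileup, averaged over the region for H3K27Ac (broad layout) and at the summit for H3K4me3 (narrow layout). Each peak also has a deposited −log10 p-value, and a −log10 q-value for the same place. The deposited score is a rounded form of the latter and was not used. Another deposited column gives the summit position.

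From chromosome ends the H3K27Ac coordinates are GRCh37 and those of H3K4me3 GRCh38. No coordinate was converted, and positions were compared within a mark. Genes came from GENCODE 44 mapped to GRCh37 and from a RefSeq table of GRCh38.p14, which gives 1 start per gene. Transposase cut positions, where not shifted, move a peak edge by a few bases.

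Coverage is the share of length under merged peaks. A peak was overlapped if it shared 1 bp with the other list. A percentile is the share of the list's peaks with a fold at or below that of the strongest peak within 1 kb of a transcript start, and 0 where no peak lay there. H3K4me3 pileups were worked back from the steps of the fold values, of which 100% in sgNeg and 100% in sgNpm1A were whole within 0.02. Shares carry Wilson intervals and pileups exact Poisson intervals, at 95%. Interval arithmetic was tested on simulated data. Python 3.11.15, numpy 2.4.6, pandas 2.3.3 and scipy 1.17.1 were used.

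The region, its members, the MYC/MAX gene list and the settings were chosen with earlier results of these data known. Named were MYC, PVT1 and CCDC26, other genes of the window under a wide sgNeg H3K27Ac peak or with an sgNeg H3K4me3 promoter peak, all peaks over MYC, and wide peaks over PVT1, CCDC26 and the domain. POU5F1B was also named as the other coding gene. Alternatives were stricter q-value and fold limits, equal numbers of peaks, a minimum width, other domain edges, overlap rules, promoter widths and rankings.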

Additional observations from a re-analysis of the deposited data

How the results depend on the processing

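No paired analysis was possible because each group held 1 library. With no replicates, none of these values has an error between samples, and the depth of the libraries, which sets how many weak peaks are listed, was not given in the sources used here.

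The H3K27Ac coverage ratio of the domain, 0.508, stayed below 1 under all alternatives run. It was 0.370 for peaks with a q-value under 0.01, 0 under 1e-05 (26.0% covered in sgNeg), 0.00743 at a fold of at least 4, 0.132 for the 20000 peaks with the lowest p-values of each list, 0.471 for peaks of 500 bp or more and 0.600 for a domain of 1.6 to 2.1 Mb. Over chromosome 8 outside the window the same choices gave 1.46, 0.182, 0.359, 0.781 and 1.21 in place of 1.13. The H3K27Ac ratio of the window, 0.817, became 0.964, 0.0199, 0.0636, 0.436 and 0.814.

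The H3K4me3 ratios turned over. For the domain 0.730 became 0.765 at a q-value under 0.01, 0.384 under 1e-05 and 0.653 with the longer domain, but 1.23 at a fold of at least 4, 1.95 with 20000 peaks and 1.86 from 500 bp on. For the window 0.791 became 0.832, 0.424, 1.32, 1.91 and 2.45. Chromosome 8 turned with them, at 1.13, 1.97 and 1.58 under the last 3, so neither direction holds for H3K4me3 coverage. The cause was not tested. The ratio of the 100 kb from the MYC start on, added after the data were seen, stayed below 1 at 0.0524 to 0.278.

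The share of wide domain peaks overlapped, 100%, was 5.88% when 50% of both peaks had to be shared, 17.6% for 50% of the sgNeg peak and 70.6% against sgNpm1A peaks with a q-value under 0.01, where chromosome 8 outside the window gave 34.3%, 53.8% and 71.5%. It was 100% for peaks of 3000 bp or more and 89.2% for those of 1000 bp or more. The MYC promoter difference of -48.5 points was the same for promoters of 2 kb and 0.5 kb, -95.2 for peaks with a q-value under 0.01, -58.7 within chromosome 8 and -49.2 by q-value.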

Other observations

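The strongest sgNpm1A H3K27Ac peak of the window lay far before MYC, at chr8:127855556-127858051 in GRCh37, within the long non-coding RNA ENSG00000253573 and close to its start. It was 2496 bp long with a fold of 5.13, the one sgNpm1A peak of the window with a q-value under 1e-05, and it faced an sgNeg peak of 4.64-fold. The H3K4me3 lists also had a strong pair at -890.4 kb from the MYC start, chr8:126844683-126845325 in GRCh38 with 8.53-fold and 40 fragments (28.6 to 54.5) in sgNeg, and chr8:126844431-126845586 with 5.60-fold and 21 fragments (13.0 to 32.1) in sgNpm1A. Whether both marks fall on the same bases was not tested, since the builds differ. The 1 Mb before MYC was the stretch of the window with more H3K27Ac coverage in sgNpm1A than in sgNeg. Its 100 kb nearest to MYC had 21.1% in sgNeg but 38.0% in sgNpm1A, a ratio of 1.80 that 1007 of 1386 bins of chromosome 8 did not reach. A wide sgNpm1A peak there, chr8:128648274-128651668 (3395 bp, 3.21-fold), was the one of 57 wide sgNpm1A peaks of the window with no sgNeg peak over it, and chr8:128672759-128675658 (3.78-fold) was covered over 11.1%.

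H3K27Ac peaks within 12.5 kb were joined, and the joined regions were ranked by length times fold. What part the density of chromosome 8 had in these ranks was not tested. In sgNeg the domain fell in a region of 844.6 kb made of 270 peaks, which ranked 45 of 49245, and MYC with PVT1 in one of 1382 kb, ranked 32. In sgNpm1A the domain was split between regions of 385.9 kb, ranked 175, and 164.1 kb, ranked 721 of 52913, whereas MYC fell in a region of 2256 kb, ranked 18. Chromosome 8 took 98 of the first 1000 ranks in sgNeg and 178 in sgNpm1A. The rank of the MYC region was thus higher in the list where the MYC promoter peak itself was weaker.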
